A study of Mus musculus with 15 samples.

Results

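The genes described here were Zscan4a, Zscan4b, Zscan4c, Zscan4d, Zscan4e, Zscan4f, Tcstv1, Tcstv3 and Zfp352, markers of the 2-cell-like state of mouse embryonic stem cells (mESCs). They were taken by symbol from the gene counts, which held 9 of the 9 symbols among 23412 genes. The 6 Zscan4 copies passed the filter on low counts and were tested, and Tcstv1, Tcstv3 and Zfp352 did not pass it and are given as counts. The study asked how STAG1 and STAG2, the alternative subunits of the cohesin complex, shape gene expression, and RNA-seq was the assay used here. All 15 libraries came from male v6.5 mESCs on gelatin that had received 50 nM siRNA 48 h before collection. The conditions, with 3 replicates each, were wild-type siGLO (siGLO is a transfection control), Stag1-/- siGLO, Stag2-/- siGLO, wild-type siStag1 (an siRNA pool against Stag1) and Stag2-/- siStag1. Each knockout genotype was 1 CRISPR clone, so the genotype and the clone cannot be told apart. The study calls its RNA-seq replicates biological, and whether they were separate cultures is not given in the sources used here, so p-values measure the spread between these libraries.

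A small and changing fraction of mESCs passes through a state that resembles the embryo when its own genome is first switched on. Cells in this state transcribe genes that are otherwise silent in mESCs, and much of this program can be driven by the homeobox factor DUX. The Zscan4 genes encode zinc finger proteins with a SCAN domain and are known for their part in telomere elongation and genome stability in mESCs. Tcstv1 and Tcstv3 are related genes whose products have also been linked to telomere length, and Zfp352 encodes a zinc finger protein of the early embryo. In RNA from whole cultures, fewer cells in the state and less RNA per cell cannot be told apart.

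The Zscan4 copies lie in tandem on chromosome 7 in mm10 (GENCODE M21), between positions 10794242 and 11402318, a stretch of 608 kb. In order they are Zscan4a at chr7:10794242-10799057 on the minus strand, Zscan4b at chr7:10900740-10905050 (minus), Zscan4c at chr7:11005745-11010547 (plus), Zscan4d at chr7:11161374-11166159 (minus), Zscan4e at chr7:11306378-11310682 (minus) and Zscan4f at chr7:11397915-11402318 (plus). GENCODE M21 lists Zscan4a as an unprocessed pseudogene and the other copies as protein coding. Tcstv1 lies at chr13:119893388-119894785 on the minus strand, Tcstv3 at chr13:120316878-120318178 on the plus strand, and Zfp352 at chr4:90218820-90225702 on the plus strand. The transcripts of the Zscan4 copies are 94.1% (Zscan4d and Zscan4e) to 97.9% (Zscan4a and Zscan4c) identical, and those of Tcstv1 and Tcstv3 are 92.1% identical over 656 aligned bases. This matters for the counts, because only uniquely mapped reads were counted on genes.

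Of all stretches of 150 bases, the read length, in the transcripts of a copy, 22.6% in Zscan4f, 25.0% in Zscan4e, 33.6% in Zscan4b, 39.0% in Zscan4c, 74.9% in Zscan4a and 87.0% in Zscan4d occur in no other annotated transcript. The other stretches are shared with other copies or with the pseudogenes Zscan4-ps1, Zscan4-ps2, Zscan4-ps3 and Gm45551, so the counts of single copies are uncertain and their levels are underestimates. For Tcstv1, Tcstv3 and Zfp352 all such stretches are their own. A coding stretch of 100 bases shows how alike the copies are. It is the stretch of this length with the most distinct sequences and, among these, the most variable positions (13), printed on the strand of the gene with capitals where a copy differs from Zscan4c.
Zscan4a, chr7:10795593-10795692: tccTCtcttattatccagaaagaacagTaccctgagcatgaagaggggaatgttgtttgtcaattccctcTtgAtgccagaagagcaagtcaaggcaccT
Zscan4b, chr7:10901591-10901690: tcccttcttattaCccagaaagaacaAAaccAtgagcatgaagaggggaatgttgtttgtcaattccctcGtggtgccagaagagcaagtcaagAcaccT
Zscan4c, chr7:11009100-11009199: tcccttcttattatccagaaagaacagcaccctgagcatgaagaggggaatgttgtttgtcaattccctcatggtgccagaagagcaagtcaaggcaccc
Zscan4d, chr7:11162718-11162817: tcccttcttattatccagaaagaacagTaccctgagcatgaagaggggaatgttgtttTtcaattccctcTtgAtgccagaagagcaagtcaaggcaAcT
Zscan4e, chr7:11307220-11307319: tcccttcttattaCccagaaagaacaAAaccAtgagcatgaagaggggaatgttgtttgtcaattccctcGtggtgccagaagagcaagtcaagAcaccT
Zscan4f, chr7:11401293-11401392: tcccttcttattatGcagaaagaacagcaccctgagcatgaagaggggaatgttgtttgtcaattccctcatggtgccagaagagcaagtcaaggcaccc
Zscan4b and Zscan4e are identical over this stretch, so a read across it can be assigned to either only by bases outside it, and Zscan4f differs from Zscan4c at 1 position.

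Promoters were compared for the copies with an entry. RefSeq promoter entries (GRCm38.p6, the assembly of mm10), each of 300 bases, were matched for 5 of the 9 genes, Zscan4b, Zscan4c, Zscan4d, Zscan4f and Zfp352. The 4 Zscan4 entries hold the letters TATAAAAGG, a TATA box, 31 to 65 bases before the annotated start. The 120 bases around it are shown because each of these 4 copies was called lower in Stag1-/- siGLO. In Zscan4c, capitals mark this motif, and in the other copies capitals mark bases that differ from Zscan4c.
Zscan4b, chr7:10905032-10905151, minus strand: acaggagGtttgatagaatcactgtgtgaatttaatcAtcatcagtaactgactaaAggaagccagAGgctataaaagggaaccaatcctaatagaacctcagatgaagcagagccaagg
Zscan4c, chr7:11005621-11005740, plus strand: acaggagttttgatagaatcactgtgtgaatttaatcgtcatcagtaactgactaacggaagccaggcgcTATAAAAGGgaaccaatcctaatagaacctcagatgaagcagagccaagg
Zscan4d, chr7:11166164-11166283, minus strand: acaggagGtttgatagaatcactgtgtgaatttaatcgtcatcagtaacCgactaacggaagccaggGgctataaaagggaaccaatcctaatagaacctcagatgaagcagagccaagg
Zscan4f, chr7:11397814-11397933, plus strand: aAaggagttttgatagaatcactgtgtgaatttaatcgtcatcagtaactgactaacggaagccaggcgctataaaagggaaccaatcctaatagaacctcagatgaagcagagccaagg
The copies differed from Zscan4c at 1 (Zscan4f), 3 (Zscan4d) and 5 (Zscan4b) of the 120 bases. On either strand, TATAAAAGG was found in 0.706% of the 32851 promoter entries of the same length, a motif chosen after reading these promoters, and the shorter TATAAA that it contains in 13.6%. TGCACAC, a ZSCAN4 motif, was found in 4.40% of all entries and in 0 of the 5, which says only that these letters are not in these windows.

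Library depth was 14982560 to 19070126 counts on genes, with a median of 17700059, and the detection floor of 3 counts was 0.156 to 0.201 CPM, the count scaled to the normalized library size. Such floors and the count intervals given here cover counting error only. The targeted genes were examined first. Stag1 was at 116 ± 17.2 CPM (SD, n = 3) in Stag1-/- siGLO, 94.3% of the wild-type siGLO mean, and since the clone carries an in-frame deletion its count does not check the label. Stag1 was at 20.6% of the wild-type siGLO mean in wild-type siStag1 and at 32.3% in Stag2-/- siStag1, and Stag2 was at 29.7% in Stag2-/- siGLO. The stem cell markers Pou5f1, Sox2, Nanog, Klf4, Esrrb and Zfp42 summed to 3100 to 3460 CPM in wild-type siGLO, 2500 to 2910 in Stag1-/- siGLO, 2760 to 2820 in wild-type siStag1, 2480 to 2840 in Stag2-/- siGLO and 1580 to 1750 in Stag2-/- siStag1, so wild-type siGLO lay above each other condition. Of 5 fibroblast markers, Postn was at 0.467 CPM or less in all 15 libraries and Col3a1 at 0.0669 to 5.53 CPM. Col1a1 (5.09 to 19.1 CPM), Col1a2 (3.22 to 8.98) and Thy1 (4.41 to 8.78) were detected in every library. The 5 fibroblast markers summed to 16.5 to 37.1 CPM.

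Wild-type siGLO cells had the highest Zscan4 mean, and their libraries were the most spread. The 6 copies summed to 59.4, 19.4 and 21.8 CPM in replicates 1, 2 and 3, a mean of 33.6 ± 22.4 CPM (SD, n = 3). Replicate 1 was 2.88 times the mean of the other replicates and was the highest of the 15 libraries. It bears on every comparison with wild-type siGLO. The mean without it was 20.6 CPM, below the 21.9 CPM of Stag2-/- siStag1. Values without this library, chosen after seeing the data, are given beside the results that it moves. Per kilobase of annotated exon, the wild-type siGLO level was 3.45 ± 2.08 CPM for Zscan4a, 3.22 ± 2.19 for Zscan4c, 3.05 ± 2.13 for Zscan4d, 2.90 ± 1.80 for Zscan4e and 2.28 ± 1.96 for Zscan4f. The ranges of these copies overlapped. The copies were measured in the same libraries, and differences within a library were not tested. No allowance was made for how much of each copy is its own sequence. Zscan4b was lower, at 0.991 ± 0.458 CPM per kilobase, and its range of 0.713 to 1.52 overlapped that of Zscan4f (0.924 to 4.52) and not those of the other copies. Tcstv3 followed at 0.566 ± 0.264 and Tcstv1 at 0.523 ± 0.340, which overlapped each other, and Zfp352 at 0.0646 ± 0.0482.

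In Stag1-/- siGLO cells the Zscan4 copies were nearly silent. Their summed level was 1.53, 1.23 and 2.91 CPM in replicates 1, 2 and 3, or 105 counts in all against 1832 in wild-type siGLO. The mean of 1.89 ± 0.895 CPM (SD, n = 3) was 5.63% of the wild-type mean, 17.8-fold lower, and 10.9-fold lower without wild-type replicate 1. For each of the 6 copies every Stag1-/- library was below every wild-type siGLO library, a pattern found for 15.9% of all genes tested.

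By copy, Zscan4a was at 13.3, 5.31 and 4.95 CPM in wild-type siGLO and at 0.283, 0.503 and 0.363 CPM in Stag1-/- siGLO. Zscan4c was at 13.1, 3.91 and 5.00 CPM against 0.226, 0.168 and 0.727 CPM. Zscan4d was at 12.5, 3.80 and 4.50 CPM against 0.170, 0 and 0.571 CPM. In these copies the lowest wild-type library was several times above the highest Stag1-/- library. Zscan4e was at 8.91, 3.33 and 3.34 CPM against 0.509, 0.168 and 0.519 CPM. Zscan4f was at 8.86, 1.81 and 2.72 CPM against 0.170, 0.280 and 0.623 CPM, as a ratio the nearest approach of the groups among the copies. Zscan4b, the most sparsely counted copy, was at 2.74, 1.28 and 1.33 CPM against 0.170, 0.112 and 0.104 CPM.

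**Figure D1:**
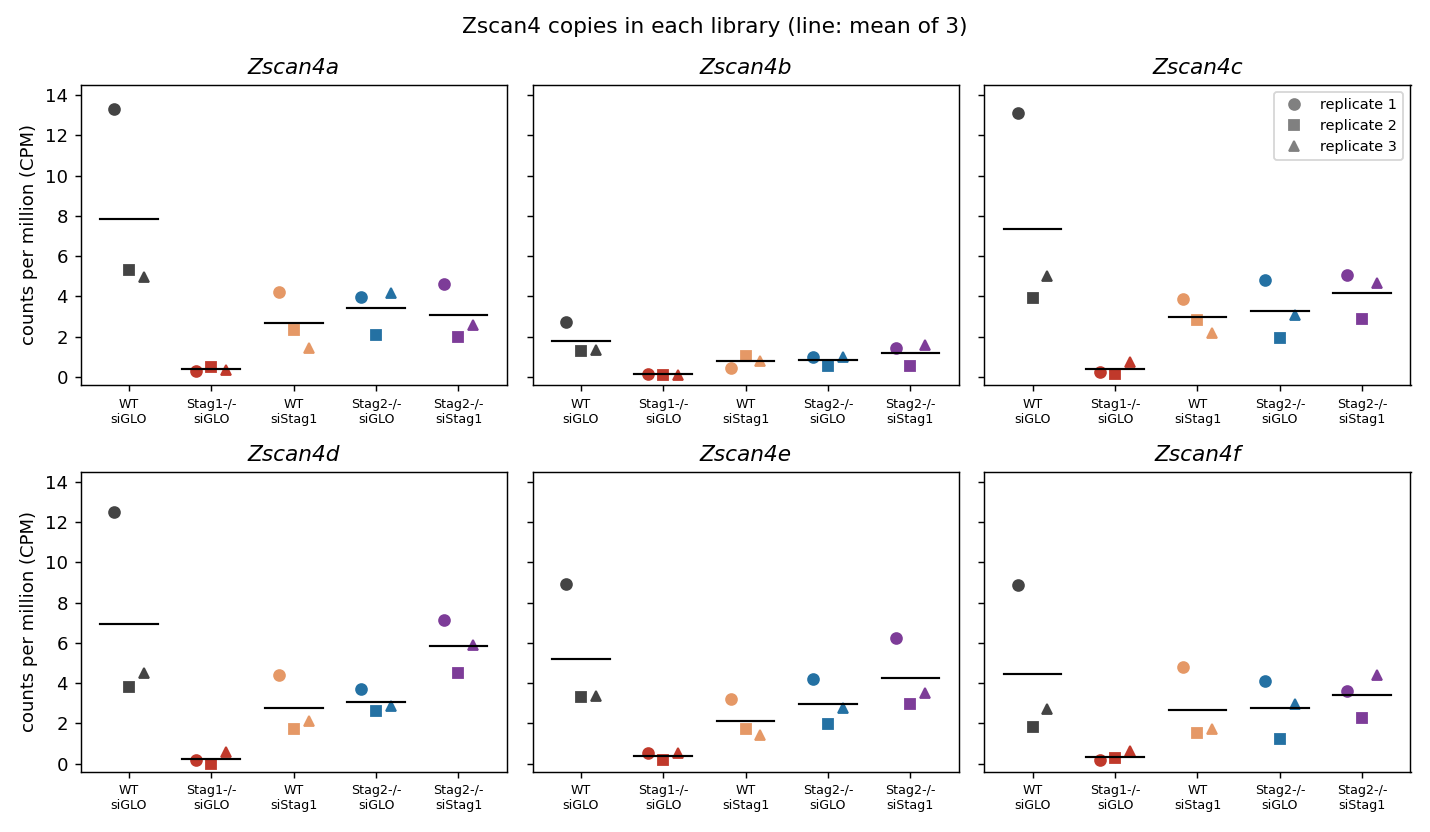
CPM of each Zscan4 copy in the 15 libraries by condition, with 1 panel per copy, 1 symbol per replicate number and a line at the mean of 3. The 3 Stag1-/- siGLO libraries lie below the other 12 in each panel, and replicate 1 of wild-type siGLO is the highest point in each.

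Compared with wild-type siGLO, 6 of 6 tested copies were called lower in Stag1-/- siGLO (edgeR quasi-likelihood test, adjusted p under 0.1), where 9.93% of the 14508 genes tested were called lower and 20% were called in either direction. The log2 fold change was -4.74 ± 0.66 (SE) for Zscan4d (adjusted p = 0.00016, edgeR) and -4.34 ± 0.55 for Zscan4a (adjusted p = 7.72e-05). It was -4.24 for Zscan4c, -3.74 for Zscan4b, -3.68 for Zscan4e and -3.60 ± 0.72 for Zscan4f, which had the largest adjusted p of the copies (0.00296). The median of all genes tested was -0.0125. Without replicate 1 of wild-type siGLO the 6 copies stayed called, with log2 fold changes from -2.62 (Zscan4f) to -4.00 (Zscan4d). Each copy had at least 10 counts in 6 or more of the 12 libraries outside wild-type siGLO, so none entered the test through the wild-type libraries alone.

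Tcstv1 and Tcstv3 were at or near 0 in Stag1-/- siGLO. Tcstv1 had 22, 4 and 14 counts in wild-type siGLO and 0 in each Stag1-/- siGLO library, at least 4.44-fold lower against a floor of 3 counts per library, and at least 3.07-fold without wild-type replicate 1. Tcstv3 had 12, 4 and 8 counts in wild-type siGLO and 1, 0 and 0 in Stag1-/- siGLO, a ratio of 0.0409 (exact 95% interval from 0.000995 to 0.251), and 0.0534 (0.00125 to 0.361) without that library. The groups did not overlap in either gene. With 3 against 3 libraries the exact permutation test cannot go below 0.1, which is the two-sided p both genes had. Zfp352 had 5, 2 and 1 counts in wild-type siGLO and 0 in each Stag1-/- library, which did not overlap either (exact permutation p = 0.1). The exact 95% interval of its ratio reached up to 0.575, and since 2 of the 3 wild-type libraries were at or under the floor of 3 counts no fold is given.

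**Figure D2:**
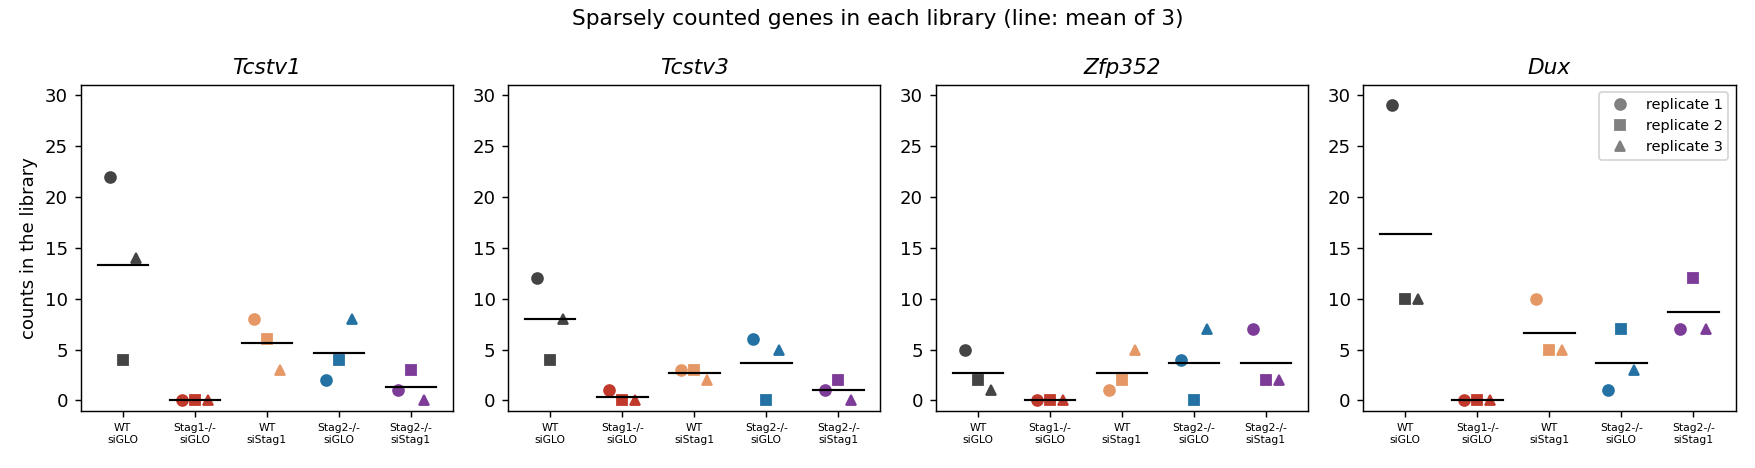
Counts of Tcstv1, Tcstv3, Zfp352 and Dux in each library, with 1 symbol per replicate number and a line at the mean of 3. Of these genes only Tcstv3 has a count in Stag1-/- siGLO, where 1 library has 1.

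The level in Stag1-/- siGLO was also below that of the other conditions with less STAG1 or STAG2. Compared with Stag2-/- siGLO, 6 of 6 copies were called lower by edgeR (background 12.9% called lower and 25.7% called), with log2 fold changes from -3.55 (Zscan4d, adjusted p = 0.00212) to -2.64 (Zscan4b, adjusted p = 0.0075). Compared with wild-type siStag1, a comparison chosen after seeing the data, 6 of 6 were called lower (background 7.82% called lower and 16% called), from -3.39 (Zscan4d) to -2.38 (Zscan4e), with adjusted p of 0.00438 to 0.02 in edgeR. Without wild-type siStag1 replicate 1 Zscan4f was no longer called (-2.14, edgeR adjusted p = 0.106) and the other copies were. The cells of these conditions differ in more than the level of Stag1, since the knockout is a clone and the siRNA acted for 48 h.

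The stem cell markers above and primitive endoderm markers also differed between conditions, but not in the order of the Zscan4 levels. The stem cell sum was lowest in Stag2-/- siStag1. In Stag1-/- siGLO it overlapped that of wild-type siStag1 and of Stag2-/- siGLO. Gata4, Gata6, Sox17, Pdgfra and Sox7 summed to 129 to 146 CPM in wild-type siGLO and 132 to 151 in wild-type siStag1. They summed to 12.2 to 19.7 CPM in Stag1-/- siGLO, to 20.3 to 37.5 in Stag2-/- siGLO and to 23.7 to 36.3 in Stag2-/- siStag1. Each of the 5 was detected in all 15 libraries, the lowest value being 0.565 CPM for Sox17. The trophoblast markers Cdx2, Elf5, Eomes, Tfap2c and Gata3 summed to 59.7 to 69.7 CPM in wild-type siGLO, 52.9 to 63.7 in Stag1-/- siGLO, 42.7 to 47.3 in wild-type siStag1, 33.1 to 45.9 in Stag2-/- siGLO and 17.5 to 25.9 in Stag2-/- siStag1. The part of such shifts in the Zscan4 result was not tested.

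In Stag2-/- siGLO cells the Zscan4 level was intermediate. The 6 copies summed to 21.8, 10.4 and 16.9 CPM, a mean of 16.3 ± 5.70 CPM (SD, n = 3) or 48.7% of wild-type siGLO, and 79.1% without wild-type replicate 1. Stag2-/- replicate 1 lay at the level of wild-type replicates 2 and 3, so the groups overlapped in the sum, and in 3 of the 6 copies they did not overlap (18.5% of all genes had all Stag2-/- libraries below the wild-type libraries). Of the 6 copies, 4 were called lower (edgeR, background 14.4% called lower and 28.3% called). They were Zscan4a (log2 fold change -1.20 ± 0.43, adjusted p = 0.0604), Zscan4d (-1.19, 0.0962), Zscan4c (-1.16, 0.0788) and Zscan4b (-1.10, 0.0912). Zscan4e had -0.80 (adjusted p = 0.21) and Zscan4f -0.69 (adjusted p = 0.424). With the replicate number as a block Zscan4e was called as well (-0.73, adjusted p = 0.0271 in edgeR), in a fit that called 39.4% of all genes. These calls changed with single libraries, since 0 copies were called without wild-type siGLO replicate 1 or without Stag2-/- siGLO replicate 2, and 1 without Stag2-/- siGLO replicate 3. The log2 fold changes of the 4 copies were -0.88 to -1.08 without Stag2-/- siGLO replicate 2 and -1.12 to -1.38 without Stag2-/- siGLO replicate 3. Without wild-type replicate 1 the log2 fold changes ranged from -0.65 (Zscan4b) to 0.29 (Zscan4f). Tcstv1 had 2, 4 and 8 counts and Tcstv3 had 6, 0 and 5, and their ranges overlapped those of wild-type siGLO, as did the 4, 0 and 7 counts of Zfp352.

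Knockdown of Stag1 in wild-type cells gave lower values in most copies, which did not pass the test. In wild-type siStag1 the 6 copies summed to 21, 11.3 and 9.67 CPM, a mean of 14.0 ± 6.15 CPM (SD, n = 3) or 41.7% of wild-type siGLO, and 67.7% without wild-type siGLO replicate 1. The siStag1 replicate 1 lay between the wild-type siGLO replicates, and for 4 of the 6 copies the groups did not overlap, where 8% of all genes had all siStag1 libraries below all siGLO libraries. By edgeR 0 of 6 copies were called (background 0.248%), 5 of 6 had an unadjusted p under 0.05 (6.36% of all genes), and DESeq2 called 1 (background 0.933%). The log2 fold change was -1.58 ± 0.44 for Zscan4a (edgeR, unadjusted p = 0.00251, adjusted p = 0.287) and -0.76 ± 0.57 for Zscan4f (adjusted p = 0.999), and lay between these for the other copies. Without wild-type siGLO replicate 1 the values ranged from -0.96 (Zscan4a) to 0.22 (Zscan4f). With the replicate block 3 copies were called lower by edgeR (background 1.63% called), Zscan4a (-1.52, adjusted p = 0.024), Zscan4e (-1.22, 0.025) and Zscan4d (-1.28, 0.0936). Tcstv1 had 8, 6 and 3 counts, overlapping wild-type siGLO. Zfp352 had 8 counts in all against 8 in wild-type siGLO and overlapped as well (ratio 1.04, exact 95% interval from 0.339 to 3.17). Tcstv3 had 3, 3 and 2 counts, all below its wild-type siGLO counts (exact permutation p = 0.1, the smallest possible), a ratio of 0.345 (exact 95% interval from 0.134 to 0.794), and 0.451 (0.160 to 1.2) without wild-type siGLO replicate 1.

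In Stag2-/- siStag1 cells, where both STAG genes were reduced, the Zscan4 level was the nearest to wild-type siGLO. The 6 copies summed to 28.1, 15.1 and 22.5 CPM, a mean of 21.9 ± 6.51 CPM (SD, n = 3) or 65.3% of wild-type siGLO, and 106% without wild-type replicate 1. The groups overlapped in 5 of the 6 copies (23.3% of all genes had all Stag2-/- siStag1 libraries below the wild-type siGLO libraries). Zscan4a was the copy called lower (log2 fold change -1.36 ± 0.44, edgeR adjusted p = 0.0225), 1 of 6 where 21.3% of all genes were called lower and 43.9% were called. It was not called without wild-type siGLO replicate 1 (-0.75, adjusted p = 0.185). With the replicate block Zscan4c was called as well (-0.70, edgeR adjusted p = 0.0694), in a fit that called 53.7% of all genes. Zscan4d had -0.25 ± 0.47 (adjusted p = 0.705) and, without that library, 0.49.

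Compared with Stag2-/- siGLO, 0 of 6 copies were called in Stag2-/- siStag1 (background 6.37%), 0 had an unadjusted p under 0.05 (16.7% of all genes), and DESeq2 called 0. Zscan4d was at 7.13, 4.48 and 5.87 CPM in Stag2-/- siStag1 and at 3.71, 2.6 and 2.85 CPM in Stag2-/- siGLO, and was the only copy whose groups did not overlap (10.2% of all genes had all Stag2-/- siStag1 libraries higher). Its log2 fold change was 0.93 ± 0.49 (edgeR unadjusted p = 0.0747, adjusted p = 0.358) and 0.93 with the replicate block (adjusted p = 0.0969), the 1 copy of 6 called there, where 14.1% of all genes were called. Zscan4a had -0.16 and the remaining copies had 0.30 to 0.50.

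**Figure D3:**
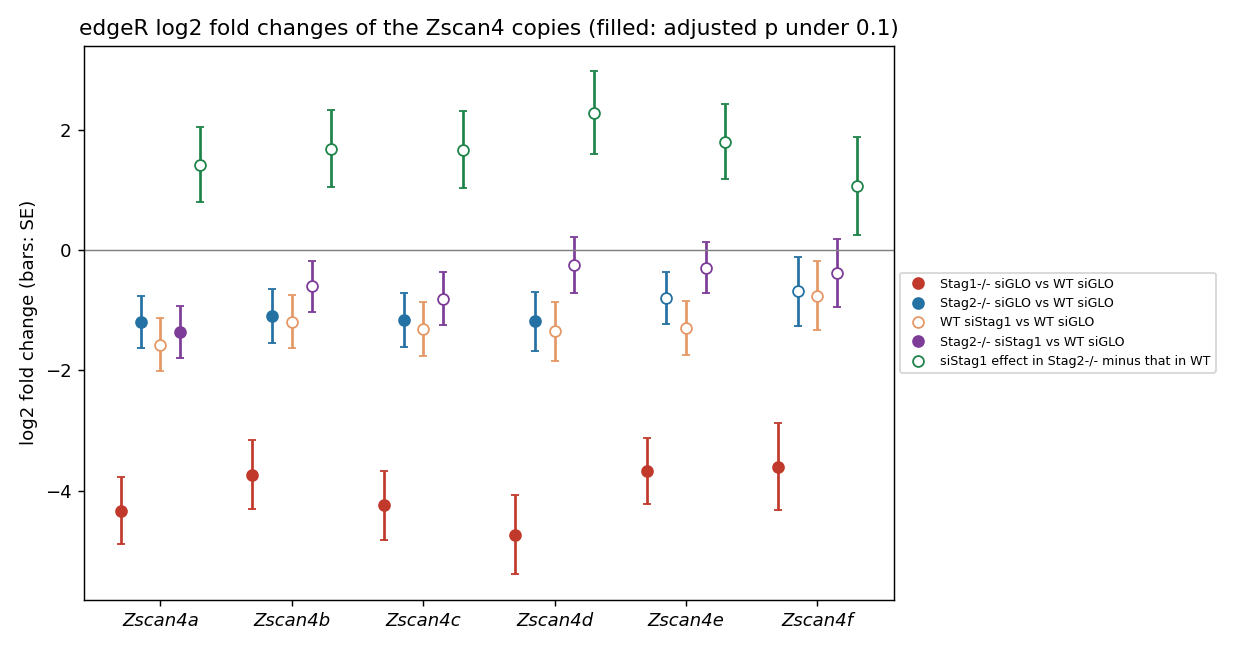
edgeR log2 fold changes of the 6 Zscan4 copies (bars, SE) in each condition against wild-type siGLO, with the siStag1 effect in Stag2-/- cells minus that in wild-type cells. Filled symbols have an adjusted p under 0.1, and the Stag1-/- values of -3.60 to -4.74 lie below those of every other condition.

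The siStag1 effect in Stag2-/- cells minus that in wild-type cells was positive for each copy, from 1.06 ± 0.81 (Zscan4f) to 2.28 ± 0.69 (Zscan4d) on the log2 scale. By edgeR 0 of 6 copies passed (background 0.159%), with an adjusted p of 0.447 for Zscan4d, 5 of 6 had an unadjusted p under 0.05 (5.80% of all genes), and DESeq2 called 0. With the replicate block Zscan4e (1.71, adjusted p = 0.0312) and Zscan4d (2.21, adjusted p = 0.0472) were called by edgeR, where 0.951% of all genes were called. Not every pair of same-numbered libraries deviated together here. Without wild-type siGLO replicate 1 the differences ranged from 0.079 (Zscan4f) to 1.54 (Zscan4d), 0 of 6 were called and 1 had an unadjusted p under 0.05. The calls thus depend on the block, and the size of the differences depends on that library. The block was not fitted without it.

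Tcstv1 and Tcstv3 were sparsely counted in Stag2-/- siStag1. Tcstv1 had 1, 3 and 0 counts there and Tcstv3 had 1, 2 and 0, each library below every wild-type siGLO library (exact permutation p = 0.1 for both, the smallest possible). The ratio to wild-type siGLO was 0.104 (exact 95% interval from 0.0270 to 0.288) for Tcstv1 and 0.130 (0.0251 to 0.428) for Tcstv3, and 0.151 and 0.170 without wild-type siGLO replicate 1. Zfp352 had 7, 2 and 2 counts and overlapped wild-type siGLO. Whether the Tcstv genes and the Zscan4 copies differ in this condition was not tested.

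The share of each copy in the Zscan4 counts varied between conditions. In wild-type siGLO Zscan4a took 23.4% of the counts on the 6 copies, Zscan4c 21.8%, Zscan4d 20.7%, Zscan4e 15.4%, Zscan4f 13.4% and Zscan4b 5.29%. Zscan4a took 19.0% in wild-type siStag1 (14.9% to 20.7% by library) and 20.9% in Stag2-/- siGLO (18.2% to 24.8%), and Zscan4d took 19.5% and 18.7%. In Stag2-/- siStag1 Zscan4d took 26.6% (25.4% to 29.6% by library, against 19.5% to 21.1% in wild-type siGLO) and Zscan4a 14.0% (11.3% to 16.5%, against 22.4% to 27.3%). These ranges did not overlap those of wild-type siGLO, and neither did the Zscan4a range of wild-type siStag1, which overlapped that of Stag2-/- siStag1. A change in mix was not tested. In Stag1-/- siGLO the shares come from 105 counts and ranged by library from 12.5% to 40.9% for Zscan4a.

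**Figure D4:**
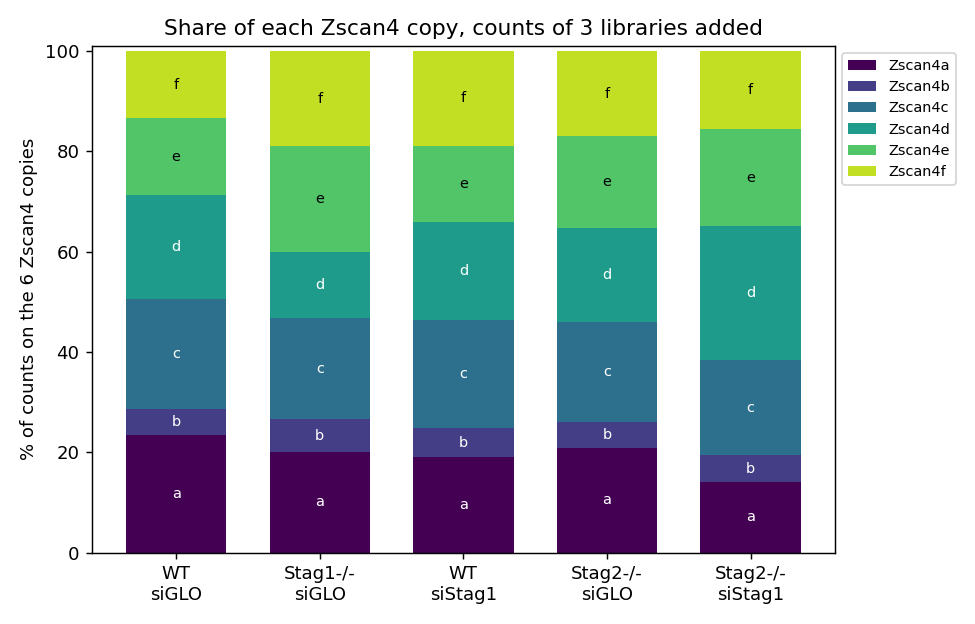
Share of each copy among the counts on the 6 Zscan4 copies, in percent, with the counts of the 3 libraries of a condition added and letters naming the copies. The Zscan4d share is 26.6% in Stag2-/- siStag1 and 20.7% in wild-type siGLO.

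Dux, the gene of the factor that can drive the state, was at the edge of detection. It had 29, 10 and 10 counts in wild-type siGLO and 0 in each Stag1-/- siGLO library, at least 5.46-fold lower against a floor of 3 counts per library, and at least 3.46-fold without wild-type replicate 1. It had 10, 5 and 5 counts in wild-type siStag1, 1, 7 and 3 in Stag2-/- siGLO and 7, 12 and 7 in Stag2-/- siStag1. Only 2 libraries outside wild-type siGLO reached 10 counts, so Dux entered the test through the wild-type libraries, and its calls are no support for a difference. In edgeR its log2 fold change was -1.98 ± 0.66 in Stag2-/- siGLO (adjusted p = 0.0479), and it was not called without wild-type replicate 1. It was -1.19 in wild-type siStag1 (0.832) and -0.83 in Stag2-/- siStag1 (0.284).

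Of 43 other genes listed as parts of the 2-cell program, 38 were in the counts, 33 had a count, and 18 passed the filter. In Stag1-/- siGLO 17 of these 18 were called lower by edgeR and 0 higher (background 9.93% called lower), with a median log2 fold change of -4.10 (-4.06 with Dux at its bound) against -0.0125 over all genes tested. Of the 18, 16 had at least 10 counts in 3 or more libraries outside wild-type siGLO, and Dux and Sp110 did not and entered the test through the wild-type libraries. Leaving out both, 15 of 16 were called lower. Without wild-type replicate 1, 15 of the 18 were called lower (background 7.59%). Dux was among them, though its calls are no support for a difference, and Sp110 was not. The called genes included the deubiquitinase genes Usp17la (-3.85), Usp17lb (-4.13), Usp17lc (-5.30) and Usp17le (-4.07), the chromosome 12 genes Gm5662 (-4.75), Gm8300 (-5.07), Gm2022 (-4.91), Gm2016 (-3.93) and Gm21319 (-4.73), and the PRAME-like genes BC080695 (-3.64) and Gm13078 (-4.06). Gm12794 (-5.25), Gm20767 (-3.45), Tmem92, a membrane protein gene (-4.33), and Sp110, a nuclear body protein gene (-2.20), were also lower. Trim43c, with 41 counts in wild-type siGLO and 27 in Stag1-/- siGLO, was the only one of the 18 not called. The 16 called genes that could be placed in GENCODE M21 lay on 6 chromosomes. Zik1, the single gene tested within 1 Mb of the Zscan4 cluster apart from its own copies, had a log2 fold change of -0.17 (edgeR adjusted p = 0.587).

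Over the 38 genes the summed level was 20.2 to 55.8 CPM in wild-type siGLO, where replicate 1 was the highest, and 1.62 to 2.86 CPM in Stag1-/- siGLO. It was 12.6 to 24.8 CPM in wild-type siStag1, 11.9 to 19.8 in Stag2-/- siGLO and 13.8 to 26.9 in Stag2-/- siStag1, so these conditions overlapped each other. The mean was 48.5% of wild-type siGLO in Stag2-/- siGLO and 63.7% in Stag2-/- siStag1, and 74.4% and 97.9% without that replicate. Apart from Dux and Sp110, 3 of 16 were called lower in Stag2-/- siGLO by edgeR and 0 higher (background 14.4% called lower), Gm12794 (-1.89), Usp17le (-1.50) and Tmem92 (-1.11), and 0 were called without wild-type replicate 1. In Stag2-/- siStag1 3 of these 16 were called lower against wild-type siGLO (background 21.3%), Gm2016 (-2.61), Tmem92 (-1.82) and Gm5662 (-1.15), and 0 higher. Of these, Gm2016 and Tmem92 stayed called without that library. In wild-type siStag1 0 of the 18 were called (background 0.248%). Usp17le was the only one called in Stag2-/- siStag1 against Stag2-/- siGLO, where it was higher (1.86 ± 0.53, edgeR adjusted p = 0.0618), 1 of 18 where 6.37% of all genes were called.

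**Figure D5:**
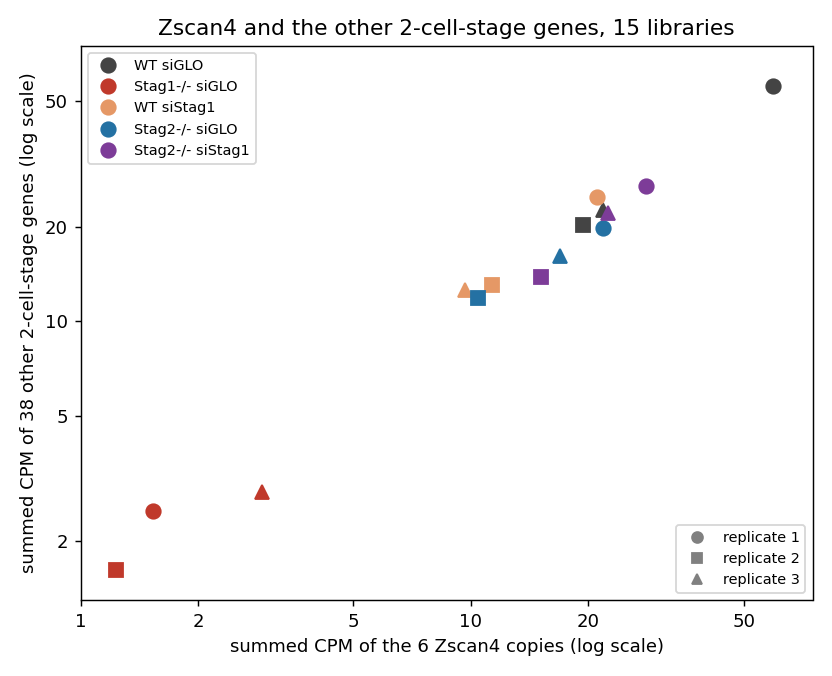
Summed CPM of the 6 Zscan4 copies (x axis) and of the 38 other genes of the 2-cell program (y axis) in each library, both on log scales, with colours for conditions and symbols for replicate numbers. The 3 Stag1-/- siGLO libraries lie at 1.23 to 2.91 CPM on the x axis and 1.62 to 2.86 CPM on the y axis, apart from the other 12.

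The genes whose levels across libraries were most like the Zscan4 sum were Gm8994, Gm5039, Gm13119, Gm5662 and Gm13109. Pearson's r of log2 CPM over the 15 libraries was 0.98, 0.97, 0.96, 0.96 and 0.95 in this order. Over the 12 libraries without Stag1-/- siGLO it was 0.89, 0.93, 0.85, 0.89 and 0.79. Libraries of a condition share a clone or a treatment, so these values describe this set of libraries. Because these genes were picked by r over libraries that include Stag1-/- siGLO, low counts there are no separate support. Gm8994 averaged 1.93 CPM in wild-type siGLO and had 5 counts in all in Stag1-/- siGLO, and Gm13119 averaged 2.68 CPM and had 1.

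Known regulators of the state were examined next. Of 4 activators, Dppa2, Dppa4, Nelfa and Trp53, 0 were called in Stag1-/- siGLO by edgeR, with log2 fold changes of -0.30 (Dppa2), -0.0064 (Dppa4), -0.0012 (Nelfa) and 0.05 (Trp53). At an unadjusted p under 0.05 the count was also 0 (27.7% of all genes), and 4 genes are too few to set apart from that share. In Stag2-/- siGLO Nelfa, a subunit of the negative elongation factor (0.29, adjusted p = 0.0213), and Trp53 (0.28, adjusted p = 0.0867) were higher (background 28.3% called), and Trp53 was not called without wild-type replicate 1. Both were also called higher by edgeR in Stag2-/- siStag1 (background 43.9% called), Nelfa with 0.20 (adjusted p = 0.0711) and Trp53 with 0.31 (adjusted p = 0.0425). There Nelfa was not called without wild-type replicate 1. Of 23 repressors 2 were called lower and 2 higher in Stag1-/- siGLO (background 20% called), and Ehmt1 was the 1 called without wild-type replicate 1. Rnf2, a Polycomb ubiquitin ligase, fell by 0.31 on the log2 scale and Uhrf1, which maintains DNA methylation, by 0.21, while the histone H3K9 methyltransferase genes Ehmt1 and Ehmt2 rose by 0.47 and 0.38. The 5 repressors with the highest levels were Ncl, Trim28, Rif1, Uhrf1 and Mga, and of these Uhrf1 was the one called in Stag1-/- siGLO. Rnf2 and Ehmt1 were called in the same directions in Stag2-/- siGLO (-0.37 and 0.54) and Stag2-/- siStag1 (-0.56 and 0.72), whereas Ehmt2 had -0.22 (adjusted p = 0.191) in Stag2-/- siGLO and was called lower in Stag2-/- siStag1 (-0.32, adjusted p = 0.04). In Stag2-/- siGLO 6 of the 23 repressors were called, 3 in each direction (background 28.3%). In Stag2-/- siStag1 8 were called against wild-type siGLO, 4 in each direction (background 43.9%), and in wild-type siStag1 0 were called (background 0.248%).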

How the data were processed

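Polyadenylated RNA of 15 libraries was sequenced by the authors as 150 bp paired-end reads, aligned to mm10 with STAR 2.6.0a and deposited as raw counts per gene. The counting tool, annotation and strand setting are not given in the sources used here. The deposited counts carry 4 summary lines, left out of tests and library sizes, and 3.8% to 4.5% of the counts per library were multimapping.

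Tests on these counts used edgeR 4.0.16 under R 4.3.3 (filterByExpr by condition with minimum count 10 and total 15, TMM, glmQLFit over all 15 libraries with 1 coefficient per condition, two-sided glmQLFTest), which left 14508 of 23412 genes. Benjamini-Hochberg adjusted p under 0.1, over all genes tested, was the threshold, as in the study, and DESeq2 1.42.0 was an alternative. The tests were checked on simulated data. CPM uses the TMM-scaled library size. No pair of libraries of a condition was a copy (the chi-square of their counts per degree of freedom was 4.7 to 26.8 over 15 pairs).

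Replicate numbers come from the labels, which do not say what they mark. Same-numbered libraries deviated together in each pair (r from 0.121 to 0.75) in all comparisons except Stag2-/- siStag1 against wild-type siGLO (lowest r 0.0485) and the difference of siStag1 effects (lowest r -0.087). The replicate block is reported beside the results whose calls it changes.

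The genes and lists were chosen with earlier results of these data known. Named genes are the 9, the 5 tested genes with the highest r with the Zscan4 sum, and, from lists of other 2-cell genes, activators and repressors, the 5 with the highest level and those called with a log2 fold change over 0.5. Trim43c and Zik1, the comparison of Stag1-/- siGLO with wild-type siStag1, and list counts and levels without wild-type siGLO replicate 1 were chosen after their values were seen. One gene that these rules bring in is not reported here. Positions, exon lengths and transcripts came from GENCODE M21, promoters from RefSeq. Plots used matplotlib 3.10.9 (Python 3.11.15).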

Additional observations from a re-analysis of the deposited data

How the results depend on the processing

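In Stag1-/- siGLO against wild-type siGLO the 6 copies were called lower in every alternative run (other size factors, library size alone, no filter, DESeq2, the libraries compared alone, each library omitted in turn, the replicate block, and adjusted p under 0.05), where 6 to 7 genes were called with a library left out and 8 without a filter or by DESeq2, the added calls being Tcstv1 and Tcstv3. Tcstv1 reached 10 counts only in 2 wild-type siGLO libraries (8 or less in all others), so with a library left out it entered the fit through wild-type siGLO alone, and its calls with a library left out are no support for a difference. Asking for at least 10 counts in every library left none of the genes to test. In Stag2-/- siGLO the 4 calls became 3 without a filter and 3 by DESeq2, where Zscan4b was not called. They became 1 with only the libraries compared, 0 at an adjusted p under 0.05 and 0 to 4 with a library left out. In wild-type siStag1 the 0 calls became 3 with the replicate block and 1 by DESeq2, and stayed 0 with any library left out. In Stag2-/- siStag1 against wild-type siGLO the 1 call became 3 without a filter and 3 by DESeq2, where the added calls were Tcstv1 and Tcstv3 and no further Zscan4 copy, 2 with the replicate block, and 0 to 3 with a library left out (3 without wild-type siGLO replicate 2, adding Zscan4c and Tcstv1, and 2 without any 1 library of Stag2-/- siStag1, adding Tcstv1). With the replicate block 1 copy was called in Stag2-/- siStag1 against Stag2-/- siGLO and 2 copies (Zscan4d and Zscan4e, higher) in the difference of siStag1 effects, where not every pair of same-numbered libraries deviated together. The block added Zscan4e in Stag2-/- siGLO (5 calls) and Zscan4c in Stag2-/- siStag1 against wild-type siGLO, and changed no other call. Signs turned without wild-type siGLO replicate 1 for Zscan4f in Stag2-/- siGLO (0.29, and -1.09 at the other end of the range with a library left out) and in wild-type siStag1 (0.22, range from -1.46), and for Zscan4d (0.49, from -0.55), Zscan4e (0.34, from -0.69) and Zscan4f (0.60, from -0.75) in Stag2-/- siStag1. Against Stag2-/- siGLO, Zscan4a in Stag2-/- siStag1 turned to 0.014 without Stag2-/- siGLO replicate 3 and to 0.076 without Stag2-/- siStag1 replicate 2 (range from -0.59), and Zscan4f to -0.047 without Stag2-/- siGLO replicate 2 (range to 0.70). Fewer libraries were fitted in these alternatives, and no further cause was tested.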
